A study of Mus musculus with 2 samples.

Results

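The genes described here encode the machinery of oxidative phosphorylation and lie on both the nuclear and the mitochondrial genome. Every gene in the count tables whose symbol begins with *Nduf*, Cox4 to Cox8, *Uqcr* or Atp5 was taken as a nuclear member, and every gene whose symbol begins with mt- as a mitochondrial member. This gave 103 of the 32285 genes listed, 90 nuclear and 13 mitochondrial. Of the 90 nuclear members, 81 encode subunits of complexes I, III, IV and V, 8 are complex I assembly factors of the *Ndufaf* group, and *Cox7a2l* encodes a factor that joins complexes into supercomplexes. *Ndufa4* and *Ndufa4l2* were counted with complex IV, where their products reside. All 13 mt- genes are protein-coding, with 7 for complex I, 1 for complex III, 3 for complex IV and 2 for complex V.

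RNA was measured in single nuclei of the mouse hippocampus with 10x Genomics 3′ libraries. One group, PS19, carried the human Tau P301S transgene under the mouse prion promoter with intact *Zbp1*. The other, PZKO, carried the same transgene and lacked *Zbp1*, the gene for a sensor of left-handed nucleic acid. Both groups were males aged 9 months, each library was a pool of hippocampi from 5 animals, and the groups compared here contain no animal without the tau transgene. No test between genotypes was possible, since each has a single library. All intervals below are 95% intervals that cover counting error only, and a difference between the libraries cannot be told apart from a difference between the pools or their preparation.

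In oxidative phosphorylation, complexes I to IV pass electrons from NADH and succinate to oxygen and pump protons across the inner mitochondrial membrane, and complex V, the ATP synthase, uses that gradient to make ATP. Complexes I, III, IV and V are built from subunits of both genomes, whereas complex II is wholly nuclear. The mt- genes are transcribed inside the organelle, so a mt- UMI in a preparation of nuclei comes from RNA outside the nucleus, attached to it or free in the suspension. Neurons depend heavily on this pathway for ATP, and several complex IV subunits have paralogs used in particular tissues.

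The PS19 library held 11469 barcodes and 116488513 UMIs (unique molecular identifiers, each marking 1 captured RNA molecule), and the PZKO library held 10920 barcodes and 171167884 UMIs. After filters on nuclei and removal of doublets, 9590 PS19 and 9307 PZKO nuclei remained, with a median of 5849 and 9022 UMIs, and 47 barcodes occurred in both libraries. *Zbp1* had 92 UMIs in PS19 and 38 in PZKO over all nuclei, a log2 ratio of -1.87 (-2.46 to -1.31). The transcript was therefore lower but not absent in the library labelled as lacking the gene. Nuclei were clustered and clusters were named from marker genes, and 11 classes with at least 50 nuclei per library were compared. The 4 described most closely were excitatory neurons (2652 PS19 and 2851 PZKO nuclei), oligodendrocytes (2577 and 2251), astrocytes (1091 and 1172) and microglia (945 and 734). Every excitatory marker was detected in excitatory nuclei of both libraries, with a summed level of 2176 and 2096 CPM (UMIs of the markers scaled to 1000000 UMIs of the class). Clusters were named from these markers, so this is no separate check. Every inhibitory marker was detected there too, with a summed level of 48.5 and 42.0 CPM. RNA of other cells was also present in every class. *Ttr*, the transthyretin gene of the choroid plexus, stood at 823 CPM in PS19 oligodendrocytes and 81.8 CPM in PZKO oligodendrocytes, and its log2 ratio lay between -3.40 and -2.91 in the 10 classes other than choroid plexus cells. In choroid plexus cells themselves it stood at 4449 and 3002 CPM. *Ttr* outside its own class was thus lower in PZKO. Most class sums, counts in the 4 main classes, and some complexes and members are given below with and without an estimate of this free RNA. The other values, those by region, cluster and gene span included, are given without the subtraction only.

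Upstream sequences are shown for 5 nuclear members, as examples of promoters with and without the motifs of regulators known to act on respiratory genes. Each is the 250 bases before the annotated start, 5′ to 3′ on the strand of the gene, from RefSeq on GRCm38.p6. Capitals mark a match to the NRF1 core (the palindrome of 10 bases in capitals in *Ndufa11*) or to the ETS core (CCGGAAG or its reverse complement CTTCCGG). *Ndufa11* encodes a complex I membrane-arm subunit, *Cox6a1* and *Cox6b1* the widely expressed forms of 2 complex IV subunits, *Cox6b2* the paralog of *Cox6b1*, and *Atp5k* the e subunit of complex V.
*Ndufa11*, chr17:56717512-56717761, plus strand: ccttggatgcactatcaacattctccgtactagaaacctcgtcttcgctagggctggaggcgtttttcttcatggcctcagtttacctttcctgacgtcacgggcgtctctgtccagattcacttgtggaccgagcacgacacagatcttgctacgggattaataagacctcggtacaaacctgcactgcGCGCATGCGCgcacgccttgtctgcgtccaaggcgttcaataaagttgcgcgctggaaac
*Cox6a1*, chr5:115348959-115349208, minus strand: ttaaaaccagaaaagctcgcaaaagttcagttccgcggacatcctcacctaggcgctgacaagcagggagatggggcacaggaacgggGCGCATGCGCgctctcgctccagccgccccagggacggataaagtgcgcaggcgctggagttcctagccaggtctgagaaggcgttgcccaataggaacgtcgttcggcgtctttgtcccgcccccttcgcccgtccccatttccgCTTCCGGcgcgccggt
*Atp5k*, chr5:108434400-108434649, minus strand: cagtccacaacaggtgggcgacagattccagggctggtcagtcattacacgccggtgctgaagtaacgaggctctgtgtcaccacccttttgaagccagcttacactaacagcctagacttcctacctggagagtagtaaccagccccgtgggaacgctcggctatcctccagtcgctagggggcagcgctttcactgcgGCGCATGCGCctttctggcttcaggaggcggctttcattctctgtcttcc
*Cox6b1*, chr7:30626115-30626364, minus strand: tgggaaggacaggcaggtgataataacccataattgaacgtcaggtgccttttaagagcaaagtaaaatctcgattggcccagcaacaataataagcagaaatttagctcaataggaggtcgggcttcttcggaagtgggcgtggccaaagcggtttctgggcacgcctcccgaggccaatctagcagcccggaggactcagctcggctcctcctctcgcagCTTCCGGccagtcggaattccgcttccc
*Cox6b2*, chr7:4753095-4753344, minus strand: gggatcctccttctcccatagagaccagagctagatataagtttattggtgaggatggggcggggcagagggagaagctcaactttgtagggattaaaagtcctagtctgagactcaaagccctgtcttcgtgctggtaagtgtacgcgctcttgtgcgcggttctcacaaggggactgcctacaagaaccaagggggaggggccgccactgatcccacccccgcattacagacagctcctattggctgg
The match began 60 bases before the start in *Ndufa11*, 50 in *Atp5k* and 28 in *Cox6b1*, and *Cox6a1* held both motifs, whereas none of these letters occurred in the *Cox6b2* window. Windows of 300 bases around the start, which add 50 bases after it, were at hand for 72 of the 90 nuclear members. The NRF1 core occurred in 7 of the 72 (9.72%) and in 1.07% of all 27025 genes with a window. These 7 were *Atp5g2*, *Atp5k*, *Cox6a1*, *Ndufa11*, *Ndufaf4*, *Ndufaf5* and *Uqcrc1*. The ETS core occurred in 17 (23.6%) against 9.93% of all genes, the YY1 motif AAGATGGCG in 8 (11.1%) against 1.64%, and the estrogen-related receptor half-site AAGGTCA in 7 (9.72%) against 5.38%, on either strand. These are letter matches, and binding was not measured.

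Cell classes differed widely in how much of their RNA came from these genes. In PS19, the 81 nuclear-encoded subunits summed to 7033 CPM in endothelial cells, the most of any class, and to 2084 CPM in excitatory neurons, the least. Pericytes (4755 CPM), choroid plexus cells (3888 CPM), microglia (3843 CPM), oligodendrocytes (3504 CPM) and astrocytes (3314 CPM) lay between. The 13 mt- genes gave another order. Ependymal cells had 23672 CPM, endothelial cells 14480 CPM, oligodendrocytes 9734 CPM and excitatory neurons 4342 CPM. Choroid plexus cells had the lowest mt- level, 3591 CPM. As a result 8.07 mt- UMIs were counted per nuclear-encoded subunit UMI in PS19 ependymal cells but 0.924 in choroid plexus cells, and the same 2 classes were the extremes in PZKO (7.51 and 0.693). These orders compare 1 set of genes across classes of the same library, as shares of the UMIs of each class. In PS19, 117087 nuclear-encoded subunit UMIs came from 2652 excitatory nuclei and 7524 from 312 endothelial nuclei. Counts per nucleus thus stood in the opposite order for these 2 classes. *Ttr* also differed between these classes, with 869 CPM in PS19 endothelial cells and 168 CPM in PS19 excitatory neurons, and its part in the order was not tested.

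All values here are of the nuclei kept after the filters, which cap the share of mt- UMIs. As a share of class UMIs, the nuclear-encoded sum was lower in PZKO in all 11 classes. The mt- sum was lower in 9 of them beyond counting error. Counts per nucleus did not all go this way. In excitatory neurons 2652 PS19 nuclei gave 117087 nuclear-encoded subunit UMIs and 2851 PZKO nuclei gave 146082. The median UMIs of these nuclei were 18668.5 and 28116. Counts per nucleus were thus higher in PZKO there, but lower in oligodendrocytes (32554 UMIs from 2577 nuclei and 25332 from 2251). The nuclear-encoded subunits went from 2084 to 1638 CPM in excitatory neurons, a log2 ratio of -0.35 (-0.36 to -0.34). They went from 3504 to 2423 CPM in oligodendrocytes, with a log2 ratio of -0.53 (-0.56 to -0.51). In astrocytes the sums were 3314 and 2478 CPM, with a log2 ratio of -0.42 (-0.44 to -0.40). Microglia had 3843 and 2835 CPM, a log2 ratio of -0.44 (-0.48 to -0.40). All 4 intervals lay below 0. In the other classes the intervals also did, and the log2 ratio ran from -0.48 in OPCs (oligodendrocyte precursor cells) to -0.15 (-0.20 to -0.11) in endothelial cells. The mt- genes were also lower in PZKO in excitatory and inhibitory neurons. Their sum went from 4342 to 2673 CPM in excitatory neurons, a log2 ratio of -0.70 (-0.71 to -0.69). In inhibitory neurons it went from 7348 to 3188 CPM, a log2 ratio of -1.20 (-1.22 to -1.19) and the lowest of the 11 classes. Oligodendrocytes, astrocytes and microglia had log2 ratios of -0.64, -0.63 and -0.52. Choroid plexus cells and OPCs, at -0.73 and -0.70, lay near excitatory neurons. The 2 vascular classes stood apart, at 0.01 (-0.02 to 0.04) in endothelial cells (14480 and 14579 CPM) and -0.03 (-0.10 to 0.05) in pericytes. The cap on mt- UMIs selects nuclei on the measure itself, and the counting intervals do not cover this. With no filter, 9 of the 11 mt- sums moved beyond their intervals and all 11 kept their sign. With a stricter filter all 11 moved and 9 kept their sign.

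Free RNA was estimated next. The 200 barcodes with the fewest UMIs in each library, taken as an estimate of free RNA, held 15326 CPM of nuclear-encoded subunits in PS19 and 12080 CPM in PZKO, far above the level in any named class. They held 31510 and 32875 CPM of mt- genes, and 5816 and 5131 CPM of *Ttr*. If all *Ttr* outside choroid plexus cells came from this profile, it made up 14.2% of PS19 and 1.59% of PZKO oligodendrocyte UMIs, 13.5% and 1.88% in microglia, 7.02% and 0.968% in astrocytes, and 2.89% and 0.348% in excitatory neurons. The share was 14.9% and 2.13% in endothelial cells and 15.4% and 2.03% in pericytes, whose mt- ratios lay near 0, and 2.93% and 0.416% in inhibitory neurons, whose mt- ratio was the lowest. The relation between this share and the mt- ratio was not tested. With that share of the profile subtracted, the summed nuclear-encoded subunits had a log2 ratio of -0.08 in excitatory neurons and -0.01 in astrocytes, and the sign turned to 0.52 in oligodendrocytes and 0.37 in microglia. In the other classes it was -0.19 in inhibitory neurons and between 0.16 and 0.30 elsewhere. Neurons and astrocytes were then the only classes of the 10 treated this way with a nuclear-encoded ratio below 0. The mt- sum kept a log2 ratio of -1.11 in inhibitory neurons, -0.46 in excitatory neurons, -0.37 in astrocytes and -0.52 in ependymal cells, and stood at -0.07 in oligodendrocytes, 0.11 in microglia, 0.32 in endothelial cells and 1.02 in pericytes. The barcodes used for the profile had passed the cell call of the counting software and can hold nuclei, so the subtraction can remove too much. The share also rests on *Ttr* alone, and choroid plexus cells had 261 nuclei in PS19 and 94 in PZKO. Oligodendrocyte markers summed to 302 and 250 CPM in excitatory neurons, 1100 and 946 CPM in microglia and 1107 and 1198 CPM in endothelial cells. In these classes the markers differed less between the libraries than *Ttr* did, while in OPCs they were higher in PZKO, at 643 and 1633 CPM. A share scaled by other transcripts was not estimated.

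**Figure D1:**
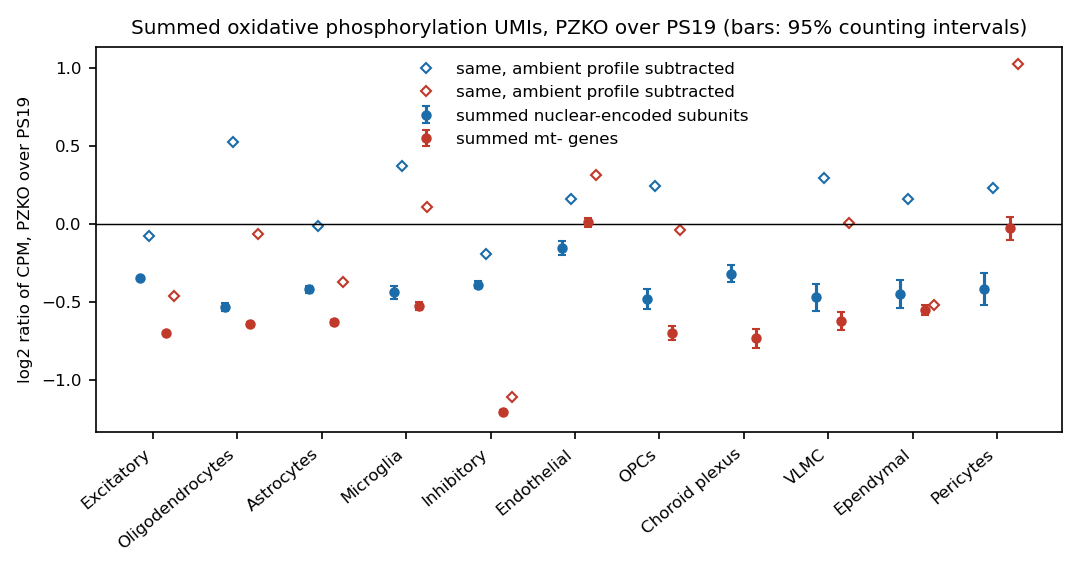
Log2 ratio of PZKO over PS19 (vertical axis) of the summed CPM of the nuclear-encoded subunits and of the mt- genes in each cell class. Filled points are the counts as deposited with 95% counting intervals and open diamonds the same sums after subtraction of the free-RNA profile. Filled points lie below 0 for the nuclear-encoded subunits in all 11 classes, and inhibitory neurons have the lowest mt- value (-1.20, and -1.11 after subtraction).

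Within the nuclear-encoded set the complexes differed in degree. Complex IV, cytochrome c oxidase, had the lowest log2 ratio of the 4 complexes in excitatory neurons (-0.46), oligodendrocytes (-0.62), astrocytes (-0.59), microglia (-0.55) and inhibitory neurons (-0.59). Complex I, the NADH dehydrogenase, had the highest in the same classes, from -0.46 in oligodendrocytes to -0.29 in excitatory neurons. Complex III lay between -0.53 and -0.32 and complex V between -0.56 and -0.34. The 8 complex I assembly factors, which help build the complex without being part of it, differed less, with log2 ratios from -0.25 in microglia to -0.09 in astrocytes. After subtraction of free RNA complex IV was still the lowest of the 4 in excitatory neurons (-0.15), astrocytes (-0.19) and inhibitory neurons (-0.38). It was not in oligodendrocytes (0.48, beside 0.44 for complex V) or in microglia (0.30, beside 0.29). Complex III then had the highest ratio in these 5 classes, from -0.0752 in inhibitory neurons to 0.97 in oligodendrocytes.

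Counting members one by one, a member was taken as measured with at least 100 UMIs over both libraries, and as lower or higher when its log2 ratio passed 0.5 in size. Of the 81 subunits, 76 reached the 100 UMIs in at least 1 class, and *Cox4i2*, *Cox6a2*, *Cox7a1*, *Cox8b* and *Cox8c* in none. In excitatory neurons 19 of 74 measured subunits were lower by this limit, where 7.78% of all measured genes were. In oligodendrocytes it was 47 of 74 (7.63% of all genes), in astrocytes 34 of 75 (9.18% of all genes), and in microglia 32 of 70 (6.11% of all genes). Inhibitory neurons had 37 of 74 lower (7.89% of all genes), whereas endothelial cells had 5 of 69 (3.89% of all genes). The median log2 ratio of the measured subunits was -0.39, -0.57, -0.48 and -0.47 in the 4 main classes, beside a median over all measured genes of -0.08, -0.04, -0.06 and -0.02. No subunit was higher past the limit in any of the 4, where 3.65%, 2.08%, 1.92% and 2.83% of all genes were. With a limit of 1 instead, 0, 2, 1 and 1 subunits were lower, beside 0.779%, 0.466%, 0.708% and 0.463% of all genes. After subtraction of the free-RNA profile, 0 of 74, 0 of 74, 1 of 75 and 2 of 54 subunits still measured were lower, beside 5.44%, 4.3%, 6.2% and 4.89% of all genes. The medians were then -0.07, 0.53, -0.01 and 0.31, beside -0.0356, 0.0215, -0.0272 and -0.0273 over all genes. In the smaller classes, 12 of 30 measured subunits were lower in OPCs (7.9% of all genes), 14 of 49 in choroid plexus cells (7.31%), 3 of 6 in ependymal cells (6.61%) and 0 of 2 in pericytes (6.04%). In VLMC (vascular leptomeningeal cells), 1 of 12 measured subunits was lower (8.93% of all genes) and 1 was higher (10.4% of all genes). The higher one was *Atp5c1*, the gamma subunit of complex V, with 32 UMIs (71.2 CPM) in PS19 and 132 UMIs (109 CPM) in PZKO and a log2 ratio of 0.61 (0.05 to 1.22).

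**Figure D2:**
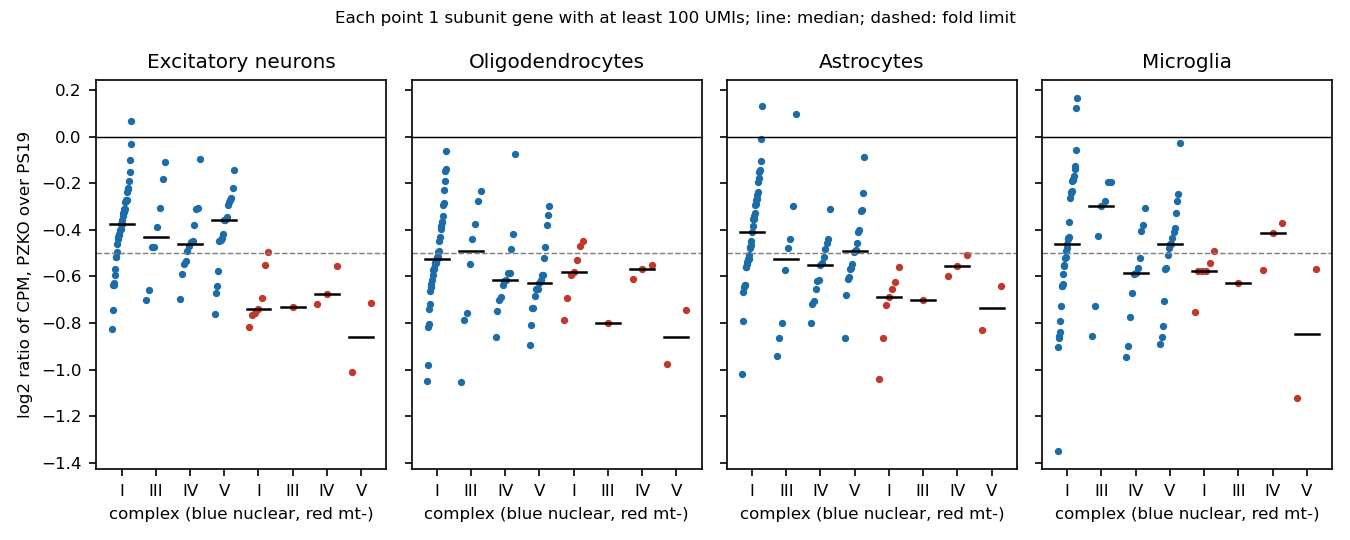
Log2 ratio of PZKO over PS19 (vertical axis) of each measured subunit gene, without assembly factors and *Cox7a2l*, arranged by complex and genome of origin, in the 4 main classes. Points are single genes and lines their medians. The UMI sums of nuclear-encoded complexes IV and I had log2 ratios of -0.46 and -0.29 in excitatory neurons. These sums are not plotted and weigh abundant genes more.

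Of the 70 subunits measured in all 4 main classes, 9 were lower past the limit in each of them, as were 1.42% of the 7371 genes measured in all 4. They were *Atp5e*, *Cox6b1*, *Cox7a2*, *Cox8a*, *Ndufa1*, *Ndufa4*, *Ndufc1*, *Ndufc2* and *Uqcrb*, and were picked out after their values had been seen. *Cox8a*, the ubiquitous form of the smallest complex IV subunit, had 3164 UMIs (56.3 CPM) in PS19 and 3336 UMIs (37.4 CPM) in PZKO excitatory neurons, a log2 ratio of -0.59 (-0.66 to -0.52). It stood at 137 and 91.4 CPM in microglia, with a log2 ratio of -0.59 (-0.80 to -0.37), and at 195 and 175 CPM in endothelial cells, with a log2 ratio of -0.16 (-0.44 to 0.12). The interval lay below 0 in both of the first classes and held 0 in endothelial cells. *Uqcrb*, a small complex III subunit that borders the ubiquinone site, had 35.9 and 17.3 CPM in oligodendrocytes, a log2 ratio of -1.05 (-1.32 to -0.79) and the lowest of any measured subunit there. In astrocytes its level was 31.0 and 16.1 CPM (log2 ratio -0.94, -1.22 to -0.66), and in endothelial cells 114 and 110 CPM (log2 ratio -0.05, -0.41 to 0.31). After the subtraction *Uqcrb* had a log2 ratio of 0.95 in oligodendrocytes. *Ndufa4*, found at the surface of complex IV, had 75.8 and 40.6 CPM in microglia, a log2 ratio of -0.90 (-1.21 to -0.59), which became 0.72 after the subtraction. *Ndufa1*, an X-linked complex I subunit needed for its assembly, was lower in endothelial cells too, at 88.8 and 53.5 CPM (log2 ratio -0.73, -1.20 to -0.27). It was therefore the one member of these 9 whose interval excluded 0 in endothelial cells. *Ndufb2*, a complex I membrane-arm subunit, had the lowest ratio of any measured member in microglia, with 94 UMIs in PS19 and 37 in PZKO (log2 ratio -1.35, -1.94 to -0.79).

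Other members differed little between the libraries. *Ndufs4*, which encodes a complex I subunit whose loss causes Leigh-like disease in mice, had 5211 UMIs (92.8 CPM) in PS19 and 8094 UMIs (90.7 CPM) in PZKO excitatory neurons, a log2 ratio of -0.03 (-0.08 to 0.02). In astrocytes it stood at 106 and 115 CPM, a log2 ratio of 0.13 (0.00 to 0.26). *Uqcrc2*, a core subunit of complex III, had 52.7 and 46.4 CPM in excitatory neurons, a log2 ratio of -0.18 (-0.25 to -0.11), and 56.8 and 60.7 CPM in astrocytes, a log2 ratio of 0.10 (-0.08 to 0.27). Both were thus near equal in the 2 libraries in astrocytes. *Atp5a1*, the catalytic-head alpha subunit of complex V, lay in between, with 69.4 and 57.4 CPM in excitatory neurons (log2 ratio -0.27, -0.33 to -0.21). *Cox7c*, a small complex IV subunit, had 76.9 and 56.3 CPM (log2 ratio -0.45, -0.51 to -0.39). *Ndufaf2*, an assembly factor that completes the NADH-binding arm of complex I, had 39.5 and 39.6 CPM in excitatory neurons, a log2 ratio of 0.00 (-0.07 to 0.08). *Ndufaf5*, an assembly factor that modifies a complex I subunit, was the member with the highest ratio in excitatory neurons, 28.5 and 30.8 CPM with a log2 ratio of 0.11 (0.02 to 0.20). In inhibitory neurons it had 44.9 and 54.0 CPM, a log2 ratio of 0.27 (0.11 to 0.42). Both intervals lay above 0, unlike those of the subunit sums.

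The members that differed and those that did not also differed in the length of the gene. *Ndufs4* spans 100.464 kb on chromosome 13 (chr13:114287795-114388258, GRCm38, minus strand) and *Ndufaf2* 155.909 kb on the same chromosome, whereas *Cox8a* spans 2.464 kb on chromosome 19 (chr19:7215153-7217616) and *Ndufa1* 3.576 kb on chromosome X. In excitatory neurons the 53 measured subunits under 10 kb had a median log2 ratio of -0.44, and the 19 of 10 to 100 kb one of -0.26. The same held in oligodendrocytes (-0.62 and -0.38), astrocytes (-0.52 and -0.30) and microglia (-0.52 and -0.26). Spearman's rho between span and log2 ratio across the measured subunits was 0.68 (n = 74 genes) in excitatory neurons, 0.50 (n = 74) in oligodendrocytes, 0.55 (n = 75) in astrocytes and 0.42 (n = 70) in microglia. These correlations are across genes of the same 2 libraries and describe them only. Other genes shared the pattern, since genes under 10 kb that are no members had a median log2 ratio of -0.24 in excitatory neurons, -0.27 in oligodendrocytes, -0.32 in astrocytes and -0.24 in microglia. The cytosolic ribosomal proteins, another group of short and abundant genes, had medians of -0.47, -0.48, -0.54 and -0.45, close to those of the subunits. In endothelial cells the ribosomal proteins stood at -0.01 and the subunits at -0.16. The part of gene length in the result was not tested.

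**Figure D3:**
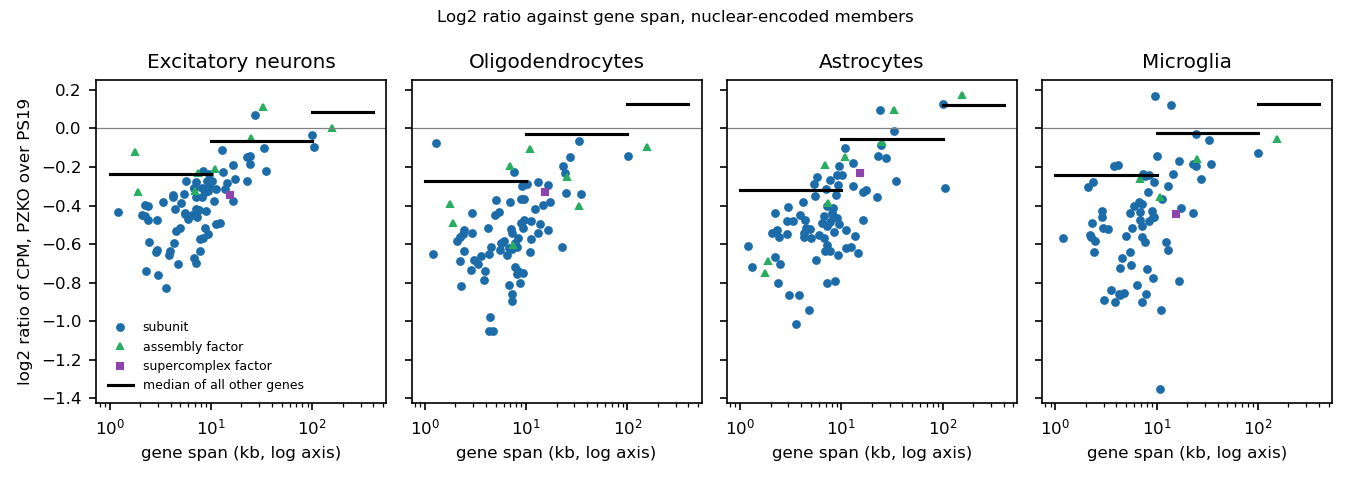
Log2 ratio of PZKO over PS19 (vertical axis) against the genomic span of the gene in kb (horizontal axis, log scale) for the measured nuclear-encoded members in the 4 main classes. Short genes lie lowest and the genes over 100 kb lie near 0, with a Spearman's rho of 0.68 across 74 subunits in excitatory neurons.

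The 13 mt- genes are given one by one in excitatory neurons, and some of them in microglia, endothelial cells and pericytes. Excitatory neurons and microglia were the classes with the most and the fewest UMIs of the 4. In excitatory neurons *mt-Atp8*, a short complex V gene whose end overlaps *mt-Atp6*, had 2074 UMIs (36.9 CPM) in PS19 and 1635 UMIs (18.3 CPM) in PZKO, with the lowest log2 ratio of all measured members, -1.01 (-1.10 to -0.92). Reads in the overlap of the pair cannot be told apart. For complex I, *mt-Nd4* had 404 and 229 CPM (log2 ratio -0.82, -0.85 to -0.79) and *mt-Nd2* 265 and 157 CPM (log2 ratio -0.76, -0.79 to -0.72). The log2 ratios of *mt-Nd1*, *mt-Nd3*, *mt-Nd4l*, *mt-Nd5* and *mt-Nd6* were -0.74, -0.76, -0.55, -0.69 and -0.50. For complex III, *mt-Cytb* had 456 and 274 CPM (log2 ratio -0.73, -0.76 to -0.71). The complex IV genes *mt-Co1*, *mt-Co2* and *mt-Co3*, which form its catalytic core, had log2 ratios of -0.56, -0.67 and -0.72, and *mt-Atp6* one of -0.71. All 13 were lower in the PZKO library. In microglia *mt-Atp8* again had the lowest log2 ratio of the mt- genes, -1.12 (-1.43 to -0.82), with 284 and 131 UMIs, and *mt-Co1* had the highest, -0.37 (-0.43 to -0.31), with 1513 and 1170 CPM. In endothelial cells *mt-Co2* was higher in PZKO, with 2049 UMIs (1915 CPM) against 2760 UMIs (2141 CPM) and a log2 ratio of 0.16 (0.08 to 0.24), while *mt-Nd4* was lower, with a log2 ratio of -0.15 (-0.26 to -0.04). In pericytes *mt-Co1* had 1285 and 1543 CPM, a log2 ratio of 0.26 (0.08 to 0.45).

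The mix of mt- UMIs differed between classes, with the same 2 classes at the extremes of *mt-Co1* in both libraries. In PS19, *mt-Co1* made up 22.7% (22.1 to 23.2) of mt- UMIs in ependymal cells and 14.5% (14.2 to 14.7) in inhibitory neurons, the extremes of the 11 classes. *mt-Nd1* ran the other way, at 5.83% (5.51 to 6.16) in ependymal cells and 11.1% (10.9 to 11.3) in inhibitory neurons. In PZKO the shares of *mt-Co1* were 22.6% in ependymal cells and 16.7% in inhibitory neurons, and those of *mt-Nd1* 5.48% and 10.3%. The intervals of these 2 classes did not overlap in either library. By contrast *mt-Co3* varied little, from 15.9% to 18.0% over the classes in PS19, as did *mt-Cytb*, from 10.0% to 11.3%.

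**Figure D4:**
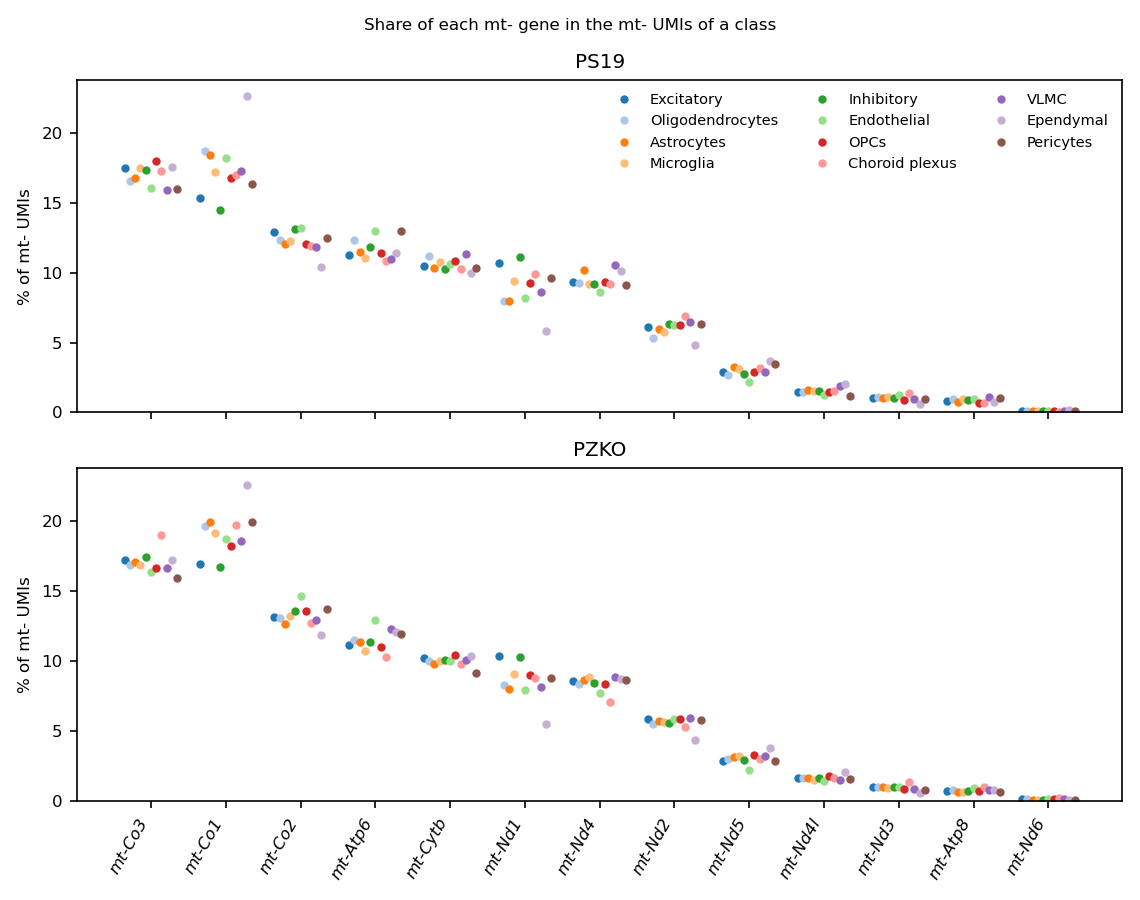
Share of each mt- gene among all mt- UMIs (percent) per cell class, for PS19 and PZKO. The share of *mt-Co1* is highest in ependymal cells (22.7% in PS19 and 22.6% in PZKO) and that of *mt-Nd1* is lowest there.

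Subunit paralogs marked particular classes in both libraries. *Cox4i2*, the hypoxia-linked form of complex IV subunit 4, had 17 UMIs (56.9 CPM) in PS19 and 15 UMIs (34.0 CPM) in PZKO pericytes and 24.3 and 14.0 CPM in endothelial cells, against at most 2.6 CPM elsewhere. *Ndufa4l2*, the hypoxia-linked paralog of *Ndufa4*, had 34 UMIs (114 CPM) and 20 UMIs (45.4 CPM) in pericytes and 48.6 and 48.1 CPM in endothelial cells, and at most 1.65 CPM in the other classes. Pericyte markers summed to 2250 and 1983 CPM in endothelial cells against 12245 and 12452 CPM in pericytes, and their part in the endothelial values was not tested. The common form *Cox4i1* was found in all classes, at 57.1 and 41.2 CPM in excitatory neurons and 288 and 265 CPM in endothelial cells, its highest.

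*Cox6b2*, known from testis, was found mainly outside neurons. It had 166 UMIs (71.9 CPM) in PS19 and 76 UMIs (62.2 CPM) in PZKO choroid plexus cells and 306 UMIs (37.5 CPM) and 254 UMIs (22.8 CPM) in astrocytes, against 0.605 and 0.224 CPM in excitatory neurons. Its paralog *Cox6b1* was at 26.5 and 18.1 CPM in excitatory neurons and 44.9 and 28.5 CPM in astrocytes. *Cox7b2* had 265 and 394 UMIs in excitatory neurons (4.72 and 4.42 CPM), 79 and 87 UMIs in astrocytes (9.67 and 7.80 CPM), and 1 and 0 UMIs in oligodendrocytes. It was thus seen in neurons and astrocytes and hardly elsewhere. In inhibitory neurons it had 5.96 and 8.25 CPM, a log2 ratio of 0.47 (0.05 to 0.90), with the interval above 0. *Cox6a2*, the heart and muscle form of subunit 6a, was rare, with 39 and 37 UMIs in inhibitory neurons. Inhibitory nuclei with a UMI of *Pvalb*, the parvalbumin gene of fast-spiking interneurons, had 7.57 CPM (4.80 to 11.4) of *Cox6a2* in PS19 against 1.91 CPM (1.09 to 3.10) in those without, and 3.91 against 1.03 CPM in PZKO. Between inhibitory clusters the split depended on the clusters compared. In PS19, a cluster with 70.6 CPM of *Pvalb* had 5.40 CPM (3.59 to 7.81) of *Cox6a2*. One with 0.696 CPM of *Pvalb* had 3.48 CPM (1.67 to 6.40), so their intervals overlapped. Another with 5.49 CPM of *Pvalb* had 0 UMIs (0 to 1.69 CPM), below the interval of the *Pvalb*-rich cluster. In PZKO these clusters had 3.09 (2.07 to 4.44), 1.33 (0.431 to 3.10) and 0.342 CPM (0.0414 to 1.23), with the same overlap. The remaining inhibitory clusters had 1 UMI or none in either library. *Cox7a1* and *Cox8c*, further forms known from muscle and testis, were at or below 3.35 CPM and at 2 UMIs in all.

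The c ring of complex V is encoded by *Atp5g1*, *Atp5g2* and *Atp5g3*, which give the same mature protein. In excitatory neurons *Atp5g1* had 22.0 and 13.8 CPM (log2 ratio -0.67, -0.79 to -0.56) and *Atp5g3* 16.9 and 10.8 CPM (log2 ratio -0.64, -0.77 to -0.51), whereas *Atp5g2* had 23.9 and 19.5 CPM (log2 ratio -0.29, -0.40 to -0.19). The interval of *Atp5g2* did not overlap those of the other two. In oligodendrocytes the log2 ratios were -0.81 (-1.06 to -0.56), -0.74 (-1.01 to -0.47) and -0.47 (-0.67 to -0.28), with the same order but overlapping intervals.

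**Figure D5:**
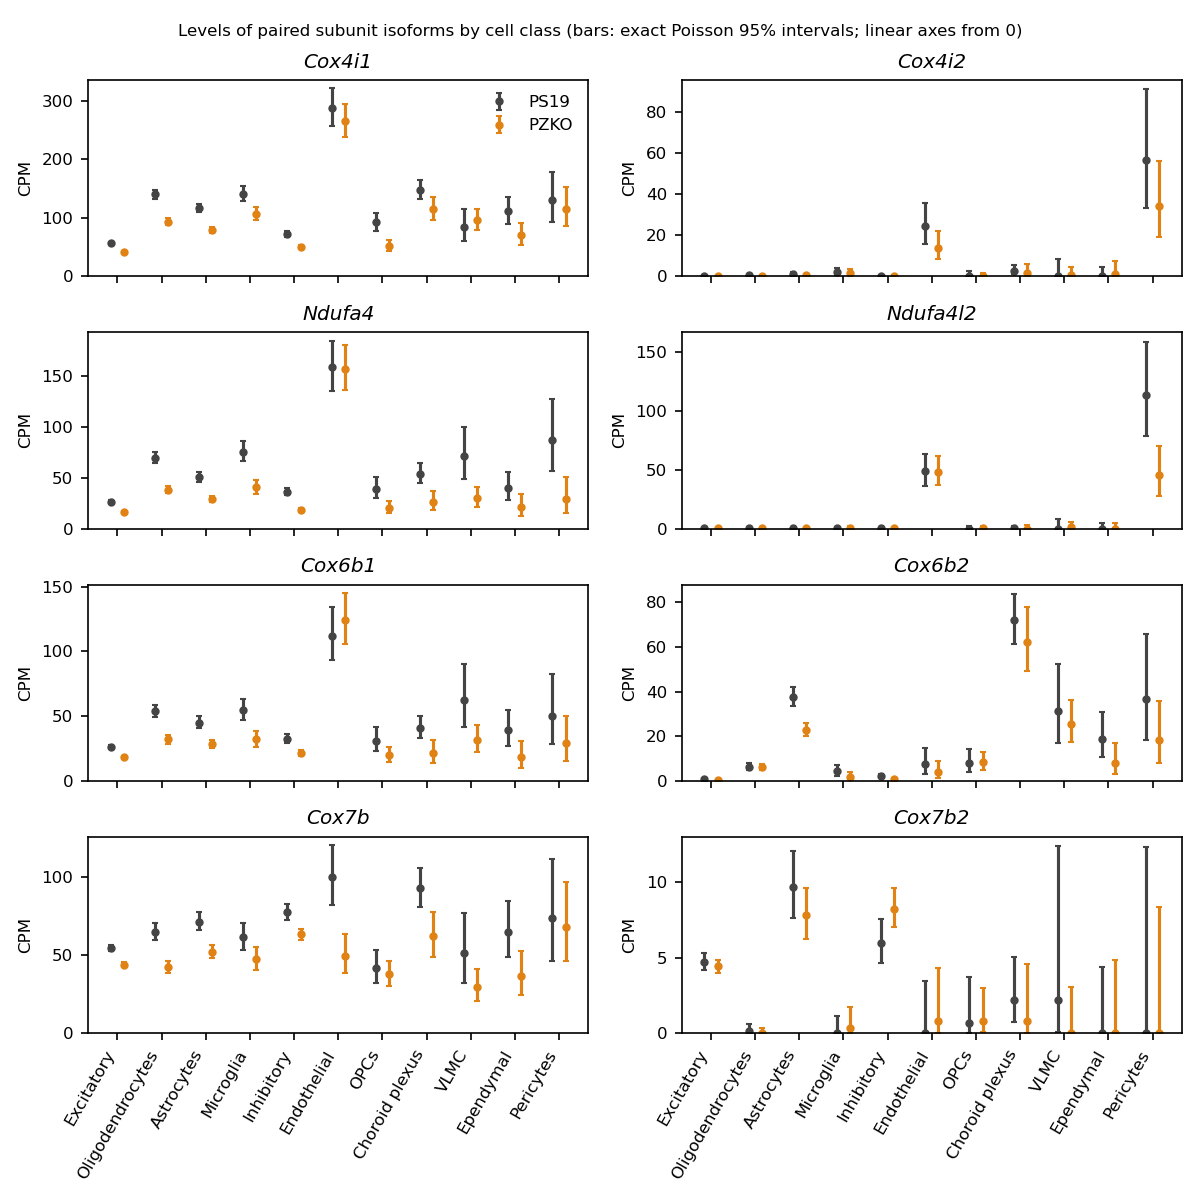
Level in CPM of the paralog pairs *Cox4i1* and *Cox4i2*, *Ndufa4* and *Ndufa4l2*, *Cox6b1* and *Cox6b2*, and *Cox7b* and *Cox7b2* in each class, for PS19 and PZKO with 95% counting intervals. *Cox4i2* and *Ndufa4l2* are confined to pericytes and endothelial cells apart from traces of at most 2.6 CPM, and *Cox6b2* is highest in choroid plexus cells (71.9 CPM in PS19).

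Partners of the pathway were not all lower. Complex II, succinate dehydrogenase, had a median log2 ratio of -0.07 over its 4 genes in excitatory neurons, and 1 of the 4 was lower past the limit (7.78% of all genes). *Sdha*, its flavoprotein, had 61.0 and 59.6 CPM (log2 ratio -0.03, -0.10 to 0.03), and *Sdhd*, a short membrane anchor gene, 9.01 and 6.28 CPM (log2 ratio -0.52, -0.70 to -0.34). *Sdhd* was also lower in oligodendrocytes (log2 ratio -0.72) and astrocytes (-0.51). *Cycs*, the electron carrier cytochrome c, had 16.0 and 11.7 CPM in excitatory neurons (log2 ratio -0.45, -0.58 to -0.32) and 35.9 and 18.3 CPM in microglia (log2 ratio -0.97, -1.44 to -0.51). Of 8 transcriptional regulators of the pathway, 0 were lower and 0 higher past the limit in excitatory neurons (7.78% and 3.65% of all genes), and their median was 0.04. *Ppargc1b*, a coactivator of respiratory genes, had 57.0 and 72.2 CPM (log2 ratio 0.34, 0.28 to 0.40), and *Esrra*, the nuclear receptor it works with, 56.1 and 44.3 CPM (log2 ratio -0.34, -0.41 to -0.27). The 11 genes of mitochondrial transcription and mt- RNA stability had a median of -0.19, with 1 lower and 0 higher, near the shares over all genes. *Lrpprc* and *Slirp*, whose products form the complex that stabilises mt- mRNA, differed from each other. *Lrpprc* was at 0.07 (0.02 to 0.13) and *Slirp* at -0.46 (-0.61 to -0.32) in excitatory neurons, and at 0.33 and -0.70 in microglia.

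Among excitatory neurons the difference was found in each hippocampal region that could be named. Regions were assigned to clusters from marker genes. Dentate granule nuclei (1010 in PS19 and 515 in PZKO) had a log2 ratio of -0.38 for the nuclear-encoded subunits and -0.59 for the mt- genes. CA1 nuclei (381 and 384) had -0.31 and -0.45, and CA3 nuclei (225 and 203) -0.27 and -0.75. Excitatory nuclei without a region (1036 and 1749) had -0.32 and -0.80. The log2 ratio of the mt- sum was thus lower than that of the nuclear-encoded sum in all of these sets, although the libraries held the sets in different proportions.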

How the data were processed

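Nuclei from pooled hippocampi of 5 males per genotype were profiled in 1 PS19 and 1 PZKO library. One statement of the methods describes hippocampi of single animals as handled apart. The deposited values are raw counts of UMIs per gene and barcode, made by the authors with Cell Ranger on mm10 (8.0.1 in the matrix headers, 7.0.1 in the submitters' processing notes). The ambient RNA correction, filters and doublet removal described in the study's methods are not part of the deposited counts. Here barcodes with under 600 UMIs, under 300 genes or over 5% mt- UMIs were removed (185 PS19 and 121 PZKO barcodes for UMIs or genes, 845 and 690 for mt- UMIs), and then 876 and 821 likely doublets by score (Scrublet in scanpy 1.11.5).

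Nuclei of both libraries were clustered together without integration (2000 variable genes without members or mt- genes, 30 components, leidenalg 0.10.2 at a resolution of 1). Clusters were named from marker genes, and 616 PS19 and 581 PZKO nuclei stayed unnamed. UMIs were summed per class and library and divided by the class total (CPM, Poisson intervals). Log2 ratios of PZKO over PS19 have exact conditional binomial intervals (Clopper-Pearson). With 1 library per genotype no test was made, and a log2 ratio past 0.5 served as a limit of size. Small subunit genes have pseudogene copies, and reads shared with a copy may be missing. Free RNA was estimated from the 200 barcodes with the fewest UMIs and scaled by *Ttr*. Gene positions came from GENCODE M21 (GRCm38), for 32235 of 32285 genes, and upstream sequences from RefSeq on GRCm38.p6.

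The members and lists were chosen with earlier results of these data known. In the 4 main classes members were named mainly from those with the highest CPM per complex and the 3 with the lowest and the highest interval. Not all of these are described. In microglia the 3 with the highest were *Ndufb3* (log2 ratio 0.17), *Ndufa7* (0.12) and *Atp5c1* (-0.03), and their intervals held 0. In all classes the choice held the mt- genes, paralogous isoforms, complex II genes and *Cycs*, and of other lists at most 2 members. Alternatives were other scalings (edgeR 4.0.16, DESeq2 1.42.0), filters, clusterings, minimum counts and fold limits, equal weights of nuclei or clusters, and subtraction of free RNA.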

Additional observations from a re-analysis of the deposited data

Results flagged for a closer look

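In 7 cases a member or a group of members had an interval above 0 in a class while the interval of the same measure lay wholly below 0 in another class. These differences between classes were not tested, and with 1 library per genotype each value covers counting error only. The summed mt- genes of complex IV had a log2 ratio of 0.0778 in endothelial cells and 0.12 in pericytes. Single mt- genes behind these were *mt-Co2* in endothelial cells (0.16) and *mt-Co1* in pericytes (0.26). In excitatory neurons the same 2 genes had log2 ratios of -0.67 and -0.56. *Ndufaf5* had a log2 ratio of 0.11 in excitatory neurons and 0.27 in inhibitory neurons, and -0.41 (-0.70 to -0.11) in oligodendrocytes. *Atp5c1* had a log2 ratio of 0.61 in VLMC, and -0.34 (-0.49 to -0.18) in oligodendrocytes.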

How the results depend on the processing

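No paired analysis was possible because each genotype has 1 library, and no replicate could be left out. Values are log2 ratios in the order excitatory neurons, oligodendrocytes, astrocytes and microglia unless named. With free RNA subtracted, medians of the subunits were -0.0705, 0.53, -0.0143 and 0.31, counts lower past the limit 0, 0, 1 and 2, and mt- sums -0.46, -0.0662, -0.37 and 0.11. Signs turned for 7 of 10 subunit sums (microglia included, 0.37), 29 of 40 complex sums and 3 of 10 mt- sums. Some values that had been past 0.5 in size turned sign. In oligodendrocytes these included the subunit sum (0.52), complexes III (0.97), IV (0.48) and V (0.44), *Cox4i1* (0.27), *Uqcrb* (0.95) and *Ndufc1* (1.64). In microglia they were the mt- sum (0.11), complex IV (0.30) and *Ndufa4* (0.72), and in OPCs complex IV (0.0714). In VLMC they were the mt- sum (0.0048) and complexes I (0.11), III (0.19) and IV (0.46), and in pericytes complexes IV (0.0419) and V (0.0407). Scaling with TMM gave medians of -0.31, -0.51 and -0.39 in the first 3 classes, 19 lower in astrocytes and mt- sums of -0.62, -0.59, -0.54 and -0.49. DESeq2 size factors gave medians of -0.30, -0.48 and -0.38, 19 lower in astrocytes and mt- sums of -0.61, -0.56 and -0.53. A limit of 1 left 0, 2, 1 and 1 subunits lower. A mean over nuclei gave mt- sums of -0.63, -0.46, -0.59 and -0.38. A stricter filter moved all 11 mt- sums beyond their intervals. This filter, which itself caps mt- UMIs at 1%, gave mt- sums of -0.29, -0.21, -0.30 and -0.15, with medians of -0.33 and counts of 11 in excitatory neurons and -0.41 and 20 in astrocytes. No share over all genes is at hand for these scalings or this filter, so their counts are not read against it. The filter behind the main values also caps mt- UMIs, at a higher share. With no filter the astrocyte median was -0.71 and mt- sums were -0.73, -0.62, -1.41 and -0.49. Keeping doublets gave mt- sums of -0.65 in astrocytes and -0.57 in microglia, and equal weights of clusters -0.68 in excitatory neurons. Depth limits the small classes, with 2 subunits measured in pericytes and 6 in ependymal cells. The causes of these changes, those after the subtraction included, were not tested.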

Other observations

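Clusters within a class differed in the mt- genes. Among the 11 excitatory clusters with at least 20 nuclei per library, the log2 ratio of the nuclear-encoded subunits ran from -0.73 to -0.19 and that of the mt- sum from -2.19 to 0.05, with 10 of 11 mt- values below 0. In the 4 inhibitory clusters the nuclear-encoded values ran from -0.77 to -0.34 and the mt- values from -1.87 to -1.06. The 2 astrocyte clusters had mt- values of -0.70 and -0.57, and the 2 oligodendrocyte clusters -0.69 and -0.57.

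*Cox8b*, a complex IV form known from muscle and brown fat, had 21 UMIs in PS19 and 0 in PZKO excitatory neurons, 19 and 1 in oligodendrocytes, 14 and 2 in astrocytes, and 15 and 9 in choroid plexus cells. Its levels in choroid plexus cells were 6.50 and 7.36 CPM, and outside them the counts were lower in PZKO in the same direction as those of *Ttr*, whose part was not tested. Genes for complex IV assembly, of which 18 of 19 were measured in excitatory neurons, had a median log2 ratio of -0.39 with 2 lower past the limit, and the 14 genes of the citric acid cycle one of -0.10 with 0 lower, beside 7.78% of all genes.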
